A study of Mus musculus with 6 samples.

Results

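The set described here holds 10 genes of vascular growth factor signalling and of endothelial cells (Flt1, Kdr, Flt4, Tek, Tie1, Vegfb, Vegfc, Eng, Plvap and Pecam1), out of 12393 genes tested. Members were taken as every probe set (a group of short probes for 1 transcript) that the platform annotation names for 1 of these genes alone. This gave 14 probe sets of 22690, 3 for Flt1, 2 each for Flt4 and Eng and 1 for each of the other 7 genes, so all 10 genes were measured and none was filtered out. RNA came from 2 mouse cell lines: A_212, derived from adult hypothalamus, and N_46, derived from embryonic hypothalamus. Both lines were immortalised by overexpression of SV40 T-antigen, and both are described as expressing Npy, the gene of the feeding peptide neuropeptide Y. Each line was grown on 3 plates to 70% confluence in medium with 5% serum, with no other treatment named, and each plate gave 1 array. Each line is the only one of its age of origin, so age and line cannot be told apart, and p-values measure the spread between plates.

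The deposited values are on a log2 scale, with base 2 inferred rather than stated, and each probe set is centred to a median of 0 over the 6 arrays. They show how arrays differ and hold no level, so they do not say whether a gene was expressed at all. For a probe set whose lines do not overlap, 0 lies midway between the nearest arrays of the lines. Differences are N_46 minus A_212, each with its standard error (SE) from limma, n = 3 plates per line, and p-values adjusted by Benjamini-Hochberg over all genes, so a negative difference is higher in A_212. Over all genes 39.2% were called at an adjusted p under 0.05, 20.9% higher in N_46 and 18.3% higher in A_212. The median SD between plates was 0.099 in A_212 and 0.078 in N_46, and the number of arrays limits the precision.

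Vascular endothelial growth factors (VEGFs) are secreted proteins that act through receptor tyrosine kinases. Kdr encodes the main signalling receptor of endothelial cells, Flt1 a receptor that binds VEGF tightly and is also made as a secreted decoy, and Flt4 the receptor of lymphatic vessels for Vegfc and Vegfd. A second system, the angiopoietins and the receptors Tek (Tie2) and Tie1, regulates vessel stability. In the hypothalamus, the median eminence holds fenestrated capillaries, whose diaphragms contain the protein of Plvap. Several of these genes are also active outside endothelium, in mesenchymal, neural or blood cells.

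Of the 10 members, 6 passed the test (60.0%, against 39.2% of all genes), 4 higher in A_212 and 2 higher in N_46. The genes higher in A_212 were Eng, Vegfc, Flt1 and Tek, and those higher in N_46 were Plvap and Flt4. Differences of at least 2-fold were called for 3 members, Eng, Vegfc and Plvap, against 5.83% of all genes. The arrays of the lines did not overlap for the same 6 members, against 51.1% of all genes. The other 4, Kdr, Vegfb, Tie1 and Pecam1, had differences between 0.060 and 0.16, with 95% intervals that lay between -0.12 and 0.44. The median size of the difference was 0.71 over the members and 0.17 over all genes, and the signed medians were 0.066 and 0.060.

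**Figure D1:**
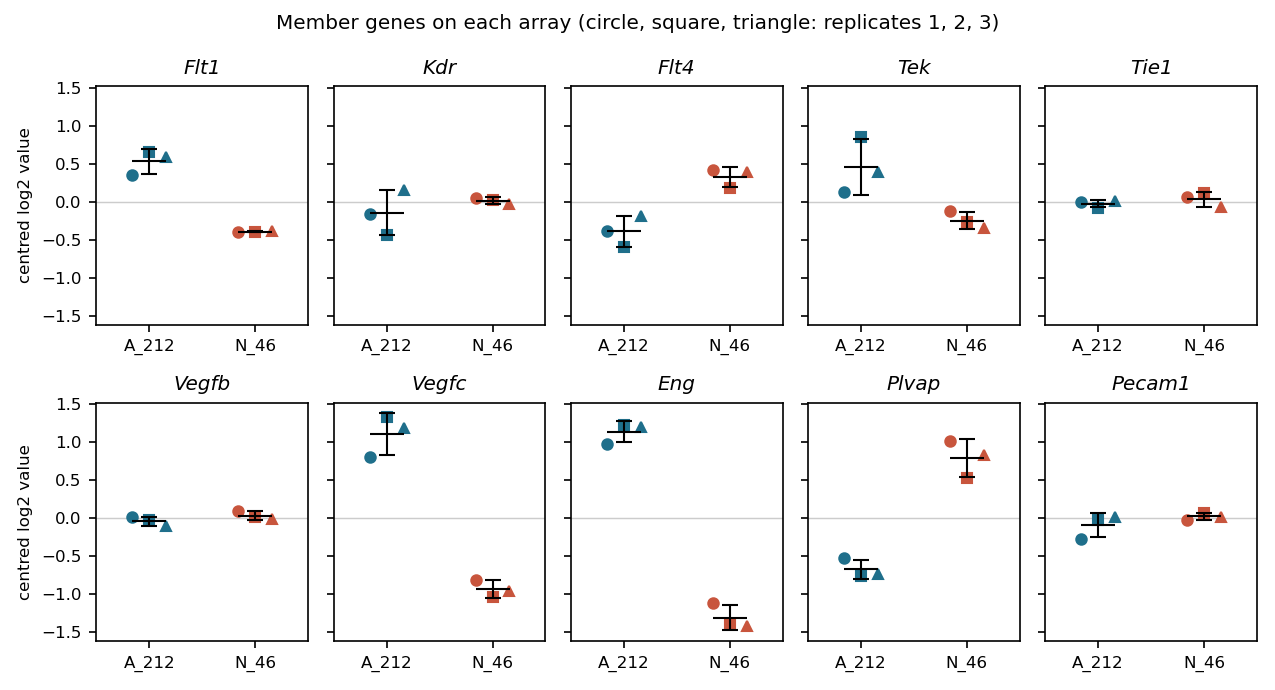
Centred log2 value of each member gene (y axis) on the 3 arrays of A_212 (blue) and the 3 arrays of N_46 (red), with replicates 1, 2 and 3 as circle, square and triangle, and mean ± SD in black. Eng and Vegfc show the widest gaps between lines, Plvap and Flt4 lie higher in N_46, and Kdr, Tie1, Vegfb and Pecam1 overlap.

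Of the 3 VEGF receptors, Flt1 was higher in A_212, Flt4 was higher in N_46 and Kdr did not pass the test. Flt1 had values of 0.35, 0.66 and 0.59 on the A_212 arrays and of -0.40, -0.39 and -0.38 on the N_46 arrays. All A_212 arrays lay above all N_46 arrays, and the N_46 plates had an SD of 0.0071 for the mean of the 3 probe sets, whose own SDs there were 0.048, 0.049 and 0.025. The difference was -0.92 ± 0.09 (SE, n = 3 arrays per line), 1.90-fold higher in A_212 (limma adjusted p = 1.43e-05). Flt4 ran the other way, with values of -0.39, -0.60 and -0.18 in A_212 and 0.42, 0.18 and 0.39 in N_46. The lines did not overlap, although the gap between the nearest arrays was 0.36, and the difference was 0.72 ± 0.11, 1.65-fold higher in N_46 (adjusted p = 0.000426). Kdr had values of -0.16, -0.43 and 0.16 in A_212 and 0.050, 0.030 and -0.030 in N_46. The A_212 arrays lay on both sides of the N_46 arrays. The difference of 0.16 ± 0.13 had a 95% interval from -0.12 to 0.44 (adjusted p = 0.35). Without A_212 replicate 3, its difference was 0.31 and it passed (adjusted p = 0.0312).

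The differences between receptors within an array, in which a shift common to all genes cancels, are given as a description. Flt1 minus Flt4 was 0.92 ± 0.29 in A_212 and -0.72 ± 0.13 in N_46 (SD, n = 3 arrays each), 2 genes whose opposite calls already set this direction. Flt1 minus Kdr was 0.68 ± 0.36 and -0.41 ± 0.05, and Flt4 minus Kdr was -0.25 ± 0.09 and 0.31 ± 0.14. An exact permutation test of 3 arrays against 3 cannot go below p = 0.10, so no call was made on such pairs, and centred values do not give the receptors' order of expression.

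Of the 14 member probe sets, 9 passed, against 36.0% of all probe sets. Those of Flt1 did not give 1 size. Probe set 1419300_at had values of 0.63, 1.28 and 0.85 in A_212 and -0.73, -0.63 and -0.68 in N_46, a difference of -1.60 ± 0.14 (limma adjusted p = 9.24e-06 over all probe sets). Probe set 1454037_a_at gave -0.91 ± 0.08 (adjusted p = 1.06e-05). Probe set 1451756_at had values of 0.029, 0.099 and 0.42 in A_212 and -0.029, -0.13 and -0.088 in N_46, and its difference of -0.26 ± 0.10 did not pass (adjusted p = 0.0767). That probe set passed with arrays set to the same median (adjusted p = 0.0449) and without A_212 replicate 1 (0.0389). All 3 had the same sign, and within each array the first minus the last was 0.74 ± 0.39 in A_212 and -0.60 ± 0.10 in N_46 (SD), a pair on which no call was made either. The range over the Flt1 probe sets, 1.34, was wider than in 95.4% of the 2164 called genes with several probe sets, whose median range was 0.24. Which transcript of the receptor each probe set reads was not analysed here. The probe sets of Flt4 also differed in size, at 0.34 ± 0.10 for 1421442_at and 1.10 ± 0.14 for 1444052_at, and both passed (limma adjusted p = 0.0219 and 0.000179). The smaller of these calls was lost without A_212 replicate 2 (adjusted p = 0.0877) and without N_46 replicate 3 (0.101).

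The bases upstream of the start sites of these receptors and of Eng, the member with the largest difference, are shown because the 3 receptors belong to 1 family, of which Flt1 and Flt4 were called in opposite directions and Kdr was not called. They are the 250 bases before the start in the RefSeq table of GRCm38.p6, which held 8 of the 10 members (not Plvap and Pecam1). The windows are Flt1 at chr5:147726012-147726261 (minus strand), Kdr at chr5:75978456-75978705 (minus), Flt4 at chr11:49609429-49609678 (plus) and Eng at chr2:32646345-32646594 (plus). Capitals mark the letters searched for ETS factors (AGGAAG or CGGAAG), the cAMP response element (TGACGTCA) and the TATA box (TATAAA), each on both strands. Shorter or variant forms of these motifs, such as GGAA alone for ETS factors, were not searched.
Flt1: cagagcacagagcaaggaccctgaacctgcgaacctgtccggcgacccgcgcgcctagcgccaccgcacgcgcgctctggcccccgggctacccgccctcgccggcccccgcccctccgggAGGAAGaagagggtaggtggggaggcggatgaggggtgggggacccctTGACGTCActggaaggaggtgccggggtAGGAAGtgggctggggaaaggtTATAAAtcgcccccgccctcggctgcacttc
Kdr: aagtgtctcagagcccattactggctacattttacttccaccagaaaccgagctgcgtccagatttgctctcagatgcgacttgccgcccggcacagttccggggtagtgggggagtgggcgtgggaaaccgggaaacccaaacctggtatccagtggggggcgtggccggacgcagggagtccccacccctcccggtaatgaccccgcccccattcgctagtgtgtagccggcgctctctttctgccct
Flt4: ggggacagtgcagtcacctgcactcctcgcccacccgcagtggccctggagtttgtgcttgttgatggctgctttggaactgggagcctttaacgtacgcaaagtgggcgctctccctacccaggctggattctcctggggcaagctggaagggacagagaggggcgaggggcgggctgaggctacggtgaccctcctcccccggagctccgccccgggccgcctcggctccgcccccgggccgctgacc
Eng: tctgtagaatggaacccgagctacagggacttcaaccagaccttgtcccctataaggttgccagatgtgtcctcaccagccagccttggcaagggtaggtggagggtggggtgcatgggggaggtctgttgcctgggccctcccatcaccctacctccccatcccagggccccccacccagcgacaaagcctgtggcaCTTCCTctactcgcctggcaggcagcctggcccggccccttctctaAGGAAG
The Flt1 window held 2 matches to the ETS letters, 1 full cAMP response element at positions -81 to -74 from the start and 1 TATA box at -31 to -26. Eng held 2 matches to the ETS letters, the second of which ended at the base before the start. The Kdr and Flt4 windows held no match to the 3 motifs as spelled here, though both hold the shorter GGAA. Among the members not printed, Tie1, which did not pass the test, held 2 ETS matches, and Tek, Vegfb and Vegfc held none of the 3. Of 32851 windows of this length in the table, 39.2% held the ETS letters, 1.55% the cAMP response element and 12.4% the TATA letters. The windows of Flt1 and Flt4 held 3 GC boxes (GGGCGG) each, that of Kdr 2 and that of Eng 0. Among those not printed, Vegfb held 4, Vegfc 2, and Tek and Tie1 0. At least 1 GC box was held by 32.7% of all windows. The median GC content of all windows was 52.4%, against 61.6% to 70.4% in the printed ones. The letters ACGTG (a form of the hypoxia response element) and TGACTCA (AP-1) were also searched, with 0 matches in the 8 windows. The other form, GCGTG, was not searched, and it can be read in the printed Kdr window and, on the opposite strand, in that of Flt1. The motifs do not overlap one another in these windows, and a match is a description of the letters, not of a bound site.

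Of the angiopoietin receptors, Tek passed the test and Tie1 did not. Tek had values of 0.12, 0.85 and 0.39 in A_212 and -0.12, -0.27 and -0.35 in N_46. The lines did not overlap, but A_212 replicates spread widely (SD 0.37) and replicate 1 came within 0.25 of the nearest N_46 array. The difference was -0.70 ± 0.15 (SE), 1.63-fold higher in A_212 (limma adjusted p = 0.00419). Tie1, an orphan relative that modulates Tek, had values of -0.0050, -0.076 and 0.0050 in A_212 and 0.064, 0.11 and -0.074 in N_46. These overlap, and the difference was 0.060 ± 0.08 with a 95% interval from -0.11 to 0.23 (adjusted p = 0.568). Tek minus Tie1 within an array was 0.48 ± 0.41 in A_212 and -0.28 ± 0.10 in N_46 (SD), also as a description.

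Of the ligands among the members, Vegfc differed and Vegfb did not pass. Vegfc, which drives lymphatic growth through Flt4, had values of 0.81, 1.33 and 1.19 in A_212 and -0.81, -1.03 and -0.95 in N_46. A gap of 1.61 separated the nearest arrays, and the difference was -2.04 ± 0.12 (SE), 4.11-fold higher in A_212 (limma adjusted p = 5.1e-07). Vegfb, a ligand of Flt1, had values of 0.011, -0.020 and -0.10 in A_212 and 0.098, 0.020 and -0.011 in N_46. They overlap, and the difference of 0.073 ± 0.07 had a 95% interval from -0.086 to 0.23 (adjusted p = 0.457), so a difference of 2-fold lies outside it. Thus Vegfc and its receptor Flt4 were called in opposite directions.

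Eng had the largest difference of the members. It encodes endoglin, a co-receptor for BMP and TGF-beta ligands in endothelial and mesenchymal cells. Its values were 0.98, 1.23 and 1.21 in A_212 and -1.11, -1.39 and -1.41 in N_46. A gap of 2.09 separated the lines, and the difference was -2.44 ± 0.10 (SE), 5.44-fold higher in A_212 (limma adjusted p = 2.47e-08). Its 2 probe sets gave nearly the same difference, -2.41 and -2.47, but not the same spread: 1417271_a_at read -0.93, -1.69 and -1.81 on the N_46 arrays and 1432176_a_at read -1.30, -1.09 and -1.01. N_46 replicate 1 was the highest of its line for the first probe set and the lowest for the second.

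Plvap and Pecam1 encode endothelial surface proteins. Plvap had values of -0.53, -0.75 and -0.73 in A_212 and 1.02, 0.53 and 0.83 in N_46. All N_46 arrays lay above all A_212 arrays by at least 1.05, and the difference was 1.46 ± 0.12, 2.76-fold higher in N_46 (limma adjusted p = 4.45e-06). Pecam1, an adhesion molecule of endothelial junctions that platelets and leukocytes also carry, had values of -0.27, -0.020 and 0.016 in A_212 and -0.016, 0.076 and 0.019 in N_46. The lines overlap, and the difference was 0.12 ± 0.09 with a 95% interval from -0.077 to 0.31 (adjusted p = 0.319).

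Among all 12393 genes, 1.21% had a larger difference than Eng, 1.73% than Vegfc and 3.19% than Plvap. The shares were 6.62% for Flt1 and 9.71% for Flt4, with Tek close behind at rank 1246, and for Kdr, Pecam1, Vegfb and Tie1 between 52.7% and 81.2%. The members that passed thus ended at rank 1246, and the next member, Kdr, stood at rank 6533.

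**Figure D2:**
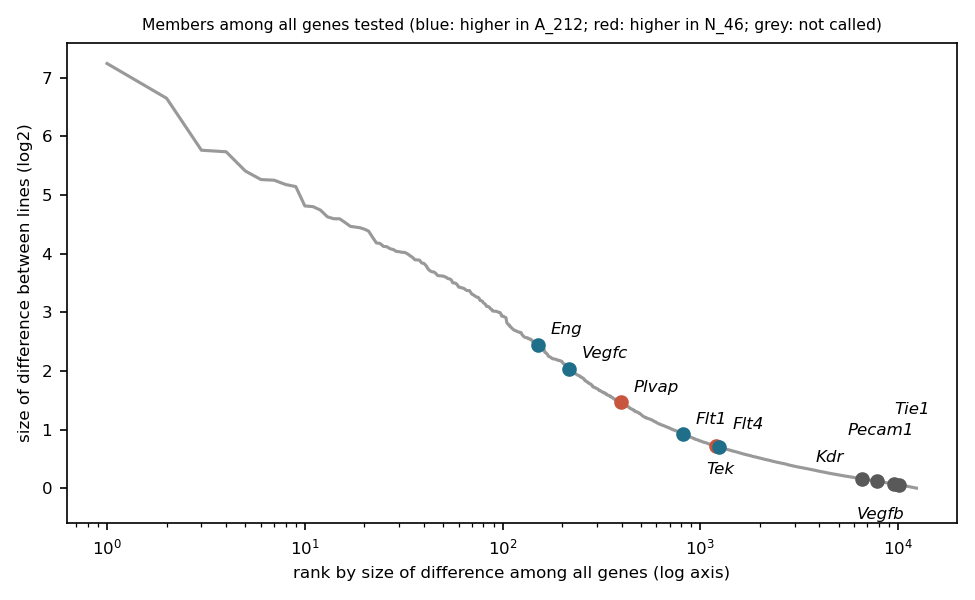
Size of the difference between the lines (y axis, log2, sign left out) against rank among all genes tested (x axis, log scale), as a grey line, with the members as points: blue higher in A_212, red higher in N_46, grey not past the test. Eng stands at rank 151 and Tie1 at rank 10058.

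The place of replicate 1 within its line differed between members. In all 4 members higher in A_212, replicate 1 was the lowest A_212 array, and in 3 of them (Eng, Vegfc and Tek) N_46 replicate 1 was the highest N_46 array. For Plvap and Flt4, the members higher in N_46, N_46 replicate 1 was also the highest N_46 array and thus the farthest from A_212. Among all 2267 genes called higher in A_212, replicate 1 was the lowest A_212 array in 37.2% and N_46 replicate 1 the highest N_46 array in 35.8%. The matching share among genes called higher in N_46 was not computed, so the place of N_46 replicate 1 for Plvap and Flt4 has no background beside it. Without A_212 replicate 1, the difference of Tek was -0.87, and without A_212 replicate 2 it was -0.50, and the 6 members passed whichever single array was left out.

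Other ligands of the 2 systems and further secreted angiogenic factors were also called in both directions. Of 15 measured that are not members, 5 were higher in N_46 and 4 higher in A_212, against 20.9% and 18.3% of all genes. The other 6 did not pass, and the median difference was 0.029. Vegfa, the main endothelial growth factor, had values of -0.49, -0.54 and -0.23 in A_212 and 0.35, 0.29 and 0.54 in N_46. Its lines did not overlap, and the difference was 0.81 ± 0.10 (adjusted p = 9.44e-05), higher in N_46. Vegfd, the second ligand of Flt4, differed by -1.97 ± 0.12 (adjusted p = 4.75e-07), close in size to Vegfc, and all 3 of its probe sets passed. Placental growth factor (Pgf), which binds Flt1, differed by -1.14 ± 0.11 (adjusted p = 1.5e-05). Of the 5 VEGF family genes, Vegfc, Vegfd and Pgf were thus called higher in A_212, Vegfa was called higher in N_46 and Vegfb was not called. Of the Tek ligands, Angpt2, which can oppose Angpt1, was higher in N_46 by 0.49 ± 0.11 (adjusted p = 0.00613), and Angpt1 differed by 0.087 ± 0.12 and did not pass. Pdgfb (1.81) and the semaphorin Sema3f (1.72) were also higher in N_46, and Sema3a (-3.43) and adrenomedullin (Adm, -2.68) in A_212.

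Receptors that work with the members were called in both directions. Of 11 measured that are not members, 2 were higher in N_46 and 4 higher in A_212, against 20.9% and 18.3% of all genes. The other 5 did not pass, and the median was -0.012. The 2 higher in N_46 were the neuropilins, co-receptors for VEGFs and semaphorins. Nrp2, a partner of Flt4, had values of -0.65, -0.96 and -0.56 in A_212 and 0.60, 0.61 and 0.56 in N_46, a difference of 1.31 ± 0.10 (adjusted p = 2.81e-06). Nrp1 differed by 0.54 ± 0.12 (adjusted p = 0.00558). Ptprb, the phosphatase that restrains Tek, differed by -2.57 ± 0.12 (adjusted p = 6.27e-08), in the same direction as Tek. The adrenomedullin receptor gene Calcrl (-1.86), the sphingosine phosphate receptor gene S1pr1 (-1.21) and the integrin gene Itgav (-0.42) were higher in A_212 too.

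Genes downstream of the receptors had mostly small differences. Of 28 measured genes of VEGF receptor signalling, 5 were higher in N_46, 3 were higher in A_212 and 20 did not pass (28.6% called, against 39.2% of all genes), with a median of 0.15. Plcg2, a phospholipase, had the largest difference at 1.56 ± 0.10 (adjusted p = 5.14e-07), and Plcg1, its relative that binds Kdr, differed by 0.082 ± 0.07 and did not pass. Src (0.41), Yes1 (0.31) and the calcineurin regulator Rcan1 (0.27) were higher in N_46, and the adaptors Nck1 (-0.53) and Shc1 (-0.36) and the kinase gene Map2k1 (-0.21) in A_212. With tests against a 2-fold difference left out, the call was lost in 5 of 14 alternatives for Map2k1, 5 of 13 for Rcan1 and 2 of 14 for Yes1. The count of 8 moved with single arrays: it was 10 without N_46 replicate 1, 5 without A_212 replicate 1 or N_46 replicate 3, 4 without N_46 replicate 2 and 14 with array weights. With arrays set to the same median, 3 of its genes in place of 5 were higher in N_46.

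For the pathway of Eng, 21 other genes were measured, with a median of 0.027. Among them 4 were higher in N_46, 3 higher in A_212 and 14 did not pass, against 39.2% of all genes called. Acvrl1, the endothelial type I receptor that endoglin assists, differed by -0.086 ± 0.13 (95% interval -0.37 to 0.20) and did not pass. The co-receptor gene Tgfbr3 (-0.97) and the receptor gene Tgfbr2 (-0.38, with probe sets from -0.59 to 0.036) were higher in A_212, as was Smad4 (-0.28), whose call was lost in 5 of 14 alternatives. Tgfb1 (0.74), Tgfb2 (0.59, with the call lost in 4 alternatives) and Tgfb3 (0.39) were higher in N_46. Id1, a target of BMP receptors, was higher in N_46 by 1.08 ± 0.28 (adjusted p = 0.0106). Its N_46 replicate 1 was at 0.015 against 1.07 and 1.18 in the other 2 plates. The related genes Id2 (0.58) and Id3 (-0.18) had opposite signs, and neither passed (limma adjusted p = 0.0949 and 0.663). Of 7 hypoxia-sensing genes, which control Vegfa, 3 passed (42.9%, against 39.2% of all genes). They were the prolyl hydroxylase genes Egln3 (0.66), Egln1 (0.37) and Egln2 (0.25), all higher in N_46. The other 4, among them Hif1a (-0.14), did not pass, and the call of Egln2 was lost without N_46 replicate 3.

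Endothelial marker genes other than the members were called in both directions. Of 32 measured, 5 were higher in N_46, 8 were higher in A_212 and 19 did not pass (40.6% called, against 39.2% of all genes), with a median of 0.033. Cdh5, the cadherin of endothelial junctions, differed by 0.043 ± 0.08 (95% interval -0.14 to 0.22), and its 2 probe sets went both ways, at -0.13 and 0.22. The tight junction gene Cldn5 (0.32) and Vwf, which encodes von Willebrand factor (0.45), were higher in N_46, and the first of these calls was lost without A_212 replicate 2 or N_46 replicate 2. Cd34, a sialomucin of endothelial, blood and mesenchymal progenitors, was higher in A_212, with values of 1.42, 1.28 and 1.14 against -1.90, -1.18 and -1.14 and a difference of -2.69 ± 0.18 (adjusted p = 8.59e-07). Thrombomodulin (Thbd, -4.80) and the drug efflux pump gene Abcb1a (-2.75) were also higher in A_212. Endomucin (Emcn) differed by -0.46 ± 0.22 and did not pass, with A_212 replicate 1 at -0.27 against 0.78 and 0.57, and it passed without that array and with the replicate block. Without N_46 replicate 2, 3 of these markers in place of 5 were higher in N_46. Because the values are centred, it cannot be read from them whether any defining endothelial marker was near 0 in level.

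Among 7 lymphatic endothelial markers, 57.1% were called, against 39.2% of all genes. Nrp2 (1.31) and Prox1 (0.23) were higher in N_46, Pdpn (-3.97) and Foxc2 (-1.45) were higher in A_212 and 3 did not pass. The call of Prox1, the regulator of lymphatic identity, was lost in 6 of 14 alternatives. Of 22 transcription factors of endothelial genes, 14 passed (63.6%, against 39.2% of all genes), 7 in each direction. Their median was 0.052. Ets2 (1.92), Hhex (1.58), Ets1 (0.71) and Foxo1 (0.58) were higher in N_46, and the flow-responsive Klf2 (-1.62), Foxc2 (-1.45), Foxc1 (-1.16) and Mef2c (-0.99) in A_212. Erg (0.34) and Fli1 (-0.58), related ETS factors of endothelium and blood, were called in opposite directions.

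**Figure D3:**
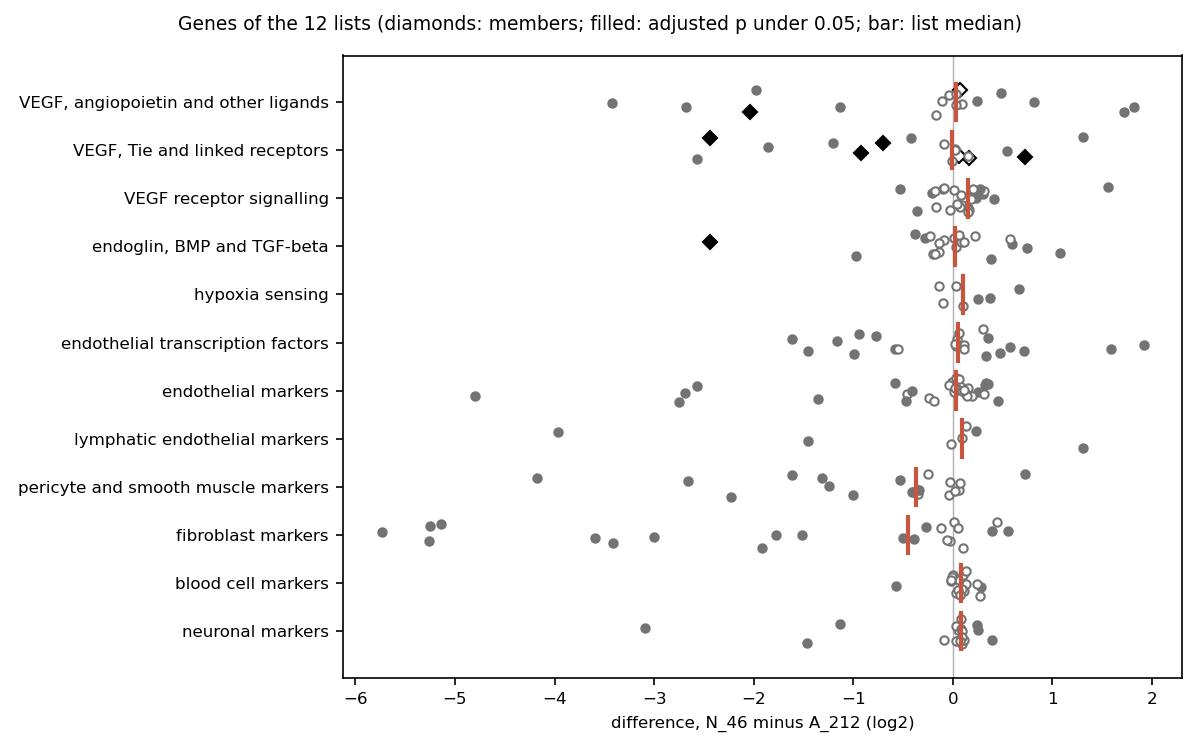
Difference between the lines (x axis, N_46 minus A_212, log2) of each measured gene in 12 lists, with members as black diamonds, symbols filled where the limma adjusted p is under 0.05, and the list median as a red bar. Ligands and receptors spread widely to both sides of 0, most signalling genes lie close to it, and the medians of the fibroblast and of the pericyte and smooth muscle lists are -0.45 and -0.38.

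Markers of other cell types that carry some of these genes were set beside the members. Of 22 fibroblast markers, 13 were higher in A_212, 2 were higher in N_46 and 7 did not pass. Their median was -0.45, and 68.2% were called, against 39.2% of all genes. Of 20 pericyte and smooth muscle markers, 12 were higher in A_212, 1 was higher in N_46 and 7 did not pass. Their median was -0.38, and 65% were called. Cdh11 (-5.74), Mmp2 (-5.26), Thbs2 (-5.25) and Postn (-5.14), genes of mesenchymal adhesion and matrix, were higher in A_212, and the collagen gene Col1a1 (0.55) and Twist2 (0.39) in N_46. The contractile genes Actg2 (-4.17), Cnn1 (-2.65), Tagln (-2.23) and Myl9 (-1.61) were higher in A_212, the last 2 without a call under eBayes with a trend, and Mcam (0.73) in N_46. The mean over the fibroblast list ran from 0.73 to 0.92 on the A_212 arrays and from -0.88 to -0.71 on the N_46 arrays, and over the pericyte list from 0.28 to 0.40 and from -0.54 to -0.31. Eng, Vegfc, Flt1 and Tek shared this direction, and Plvap and Flt4 had the opposite one. The part of these cell type markers in the members' differences was not tested, and in RNA of whole plates fewer cells of a type and less RNA per cell cannot be told apart. Of 18 blood cell markers, Cd68 (0.28) was higher in N_46, Cd14 (-0.57) was higher in A_212 and 16 did not pass (11.1% called). Of 18 neuronal markers, 6 passed (33.3%), 3 in each direction. Stmn2 (-3.09), Eno2 (-1.47) and Tubb3 (-1.13) were higher in A_212, and Ncam1 (0.39), Map2 (0.25) and Gap43 (0.24) were higher in N_46. The 6 probe sets of Ncam1 ran from -0.13 to 0.84 with 4 called, and its call was lost with plain probe sets alone. Of the 2 probe sets of Map2, 1 was called. Npy was at 0.051 ± 0.08, not past the test. Without N_46 replicate 2, 1 neuronal marker in place of 3 was higher in N_46, and the call of Cd68 was lost when any of 4 single arrays was left out.

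The members' neighbours on the chromosomes were also read. The nearest tested genes on either side of each member, 20 in all, were called in 9 cases (45%, against 39.2% of all genes). Beside the 6 members that passed, 3 of 12 such neighbours were called in the member's own direction (Ak1 beside Eng, Ift74 beside Tek and Gtpbp3 beside Plvap) and 3 in the opposite one (Mgat1 beside Flt4, Bst2 beside Plvap and Spcs3 beside Vegfc), against 20.9% of all genes called higher in N_46 and 18.3% higher in A_212. Flt3, the receptor gene next to Flt1, differed by -0.017 ± 0.07, and Kit, the receptor gene next to Kdr, by 0.072 ± 0.08. Neither passed, and these neighbours were named after their values were seen, the last 2 because they encode related receptors.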

How the data were processed

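The deposited values are on a log2 scale, 1 per probe set and array. RMA (background correction, quantile normalisation and probe summary) is named in the submitters' processing notes, with no version in the sources used here. All 22690 probe sets had a median of 0 over the 6 arrays within 5.0e-07, and the step that centred them is not described in the sources used here. Of the probe sets, 20380 had 1 gene in the platform annotation, 691 had several, 1555 had none and 64 were controls, and only the first were used for genes. A gene's value was the mean of its probe sets. Genes, and separately 22626 probe sets without controls, were fitted in limma with lmFit and eBayes on all 6 arrays, with two-sided p-values adjusted by Benjamini-Hochberg, grouped by the labelled line, with no block. The fit was tested on simulated data.

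The members and the gene lists were chosen with earlier results of these data known, so lists are given by counts and medians with no set test. Beyond members, the text draws on up to 4 called genes per list and direction with the largest differences and 12 genes chosen by name. A few related genes (Plcg1, Hif1a, Fli1, Id2, Id3, Flt3 and Kit) were named for their kinship. Alternatives were leaving out each array, scaling to a common median or 75th percentile, a block for the replicate number, weighting arrays, the median of probe sets, plain probe sets alone, robust or trended eBayes, and treat against 2-fold. Counts of lost calls given for single genes that are not members leave treat out. List counts under these alternatives were added after seeing the data. R 4.3.3, limma 3.58.1, Python 3.11.15, pandas 2.3.3, scipy 1.17.1 and matplotlib 3.10.9 were used.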

Additional observations from a re-analysis of the deposited data

How the results depend on the processing

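Of 147 alternative values of the 10 members, 143 kept their direction and their side of the threshold, 0 reversed, 3 lost the call and 1 gained it. Under treat, which tests against a 2-fold difference, Flt1 (-0.92), Flt4 (0.72) and Tek (-0.70) did not pass (adjusted p of 1 each), which left 3 members called, 1 higher in N_46 and 2 in A_212, and 406 genes in all, 138 higher in N_46 and 268 in A_212. With 1 array left out, 6 or 7 members were called (2 or 3 higher in N_46 and 4 in A_212), and from 3903 to 5124 genes, of which 1986 to 2858 were higher in N_46 and 1891 to 2266 in A_212. Kdr ranged from 0.015 to 0.31 and passed without A_212 replicate 3. Plain probe sets alone gave no value for Eng, Vegfb and Pecam1. Setting arrays to the same median moved the share of calls higher in N_46 from 53.3% to 48% and the median difference of all genes from 0.060 to 0.030, and changed no call of a member gene. Replicate numbers did not pair the arrays (correlations of same-numbered deviations from -0.03 to 0.09), and with the replicate block 4834 genes were called, in place of 4853, and the same 6 members. Plain probe sets lowered the calls among genes of the Eng pathway from 8 to 4 and among pericyte and smooth muscle markers from 13 to 8, with fewer genes tested. With centred values, no limit from signal over background can be given.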
